A study of Rattus norvegicus with 11 samples.

Results

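Transcripts of 10 genes of the circadian clock were followed array by array in rat adrenal tissue: Bmal1, Npas2, Clock, Cry1, Nr1d1, Dbp, Per1, Per2, Per3 and Bhlhe41. They were taken by symbol from the 14506 genes that had a probe set of 1 gene symbol, and each of the 10 was represented by 1 probe set. The genes were selected on an earlier view of the same values, in which their levels moved jointly with Bmal1 over the 11 arrays. The relations to Bmal1 are therefore given as a description without a test. All 10 had a value in every array, and 9 of them lay above the array's median in all 11 arrays. The exception was Cry1, which did so in 8 arrays.

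RNA was hybridised to Affymetrix arrays of 1 colour, 1 array per sample. Lesions of the adrenal gland came from 7 rats heterozygous for a mutation of the p27Kip1 gene (Cdkn1b, written Cdknb1 in the labels): lesion 1 from a female of 23 months, lesions 2 and 3 from males of 21 months, lesions 4 and 5 from females of 13 months, and lesions 6 and 7 from males of 13 months. Normal glands came from 4 wild-type rats: normal 1 (female) and normal 2 (male) of 24 months, normal 3 (female) and normal 4 (male) of 12 months. All 11 carried the strain label Sprague–Dawley white eye/Wistar–Kyoto, were kept under specific pathogen-free housing and received no treatment. Rats of this line with the p27Kip1 mutation can develop endocrine tumours, the adrenal medulla included. The labels call the tissue a lesion without naming its cells, and the controls are whole glands. The sources used here give no time of day for the collection of tissue. Values are log2 expression as deposited, so that a difference of 1 is a doubling.

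The clock of a mammalian cell is a feedback loop of transcription. BMAL1, paired with CLOCK or NPAS2, binds E-box sequences and activates the Per and Cry genes, whose proteins then block the same pair. REV-ERBα, the product of Nr1d1, represses Bmal1 through sites that the ROR receptors also bind, so that Bmal1 transcript peaks at the opposite side of the day from Nr1d1, Dbp and the Per genes. In the adrenal gland this loop gates the daily rise of glucocorticoid release, and Per1 also responds directly to cyclic AMP and to glucocorticoids.

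Promoter windows of 4 members are shown because they hold letters of motifs that the factors of this loop are known to bind. They are the RefSeq windows on build GRCr8, from 250 bases before the annotated start of the gene to 50 after it, printed in the direction of the gene with the motif in capitals. The Bmal1 window (chr1:176766078-176766377, plus strand) holds the core TAGGTCA, which REV-ERB and ROR receptors bind, 16 bases before the start. The Bhlhe41 window (chr4:180569306-180569605, minus strand) holds the E-box CACGTG 48 bases before the start, and 1 of the Nr1d1 windows (chr10:84229405-84229704, minus strand) holds it 191 bases before. The Per2 window (chr9:99496944-99497243, minus strand) holds the D-box TTATGTAA, the site of DBP and its relatives, 192 bases before.
Bmal1: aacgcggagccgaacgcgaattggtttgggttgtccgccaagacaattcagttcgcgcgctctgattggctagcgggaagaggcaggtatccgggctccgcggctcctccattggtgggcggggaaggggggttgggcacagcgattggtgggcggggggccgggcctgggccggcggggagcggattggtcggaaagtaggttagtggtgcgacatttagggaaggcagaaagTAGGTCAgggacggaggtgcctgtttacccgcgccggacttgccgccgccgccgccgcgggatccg
Bhlhe41: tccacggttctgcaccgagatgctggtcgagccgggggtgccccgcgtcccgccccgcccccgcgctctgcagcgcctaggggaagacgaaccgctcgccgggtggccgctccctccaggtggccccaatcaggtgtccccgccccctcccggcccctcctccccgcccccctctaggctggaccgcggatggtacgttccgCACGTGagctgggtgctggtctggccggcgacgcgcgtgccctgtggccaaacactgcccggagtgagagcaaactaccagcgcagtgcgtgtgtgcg
Nr1d1: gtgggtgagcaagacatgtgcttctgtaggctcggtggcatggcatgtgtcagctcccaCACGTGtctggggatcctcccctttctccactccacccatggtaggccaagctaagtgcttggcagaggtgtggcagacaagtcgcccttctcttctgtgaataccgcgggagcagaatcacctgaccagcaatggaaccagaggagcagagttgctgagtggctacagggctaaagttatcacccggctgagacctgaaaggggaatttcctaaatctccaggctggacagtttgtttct
Per2: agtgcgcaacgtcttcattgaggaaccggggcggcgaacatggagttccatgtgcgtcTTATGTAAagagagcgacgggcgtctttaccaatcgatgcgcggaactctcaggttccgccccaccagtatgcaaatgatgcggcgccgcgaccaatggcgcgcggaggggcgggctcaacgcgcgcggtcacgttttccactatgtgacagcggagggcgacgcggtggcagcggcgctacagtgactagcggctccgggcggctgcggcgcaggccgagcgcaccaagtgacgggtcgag

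Motifs were searched on both strands as exact letters. Of the 10 genes, 9 had a window, with Nr1d1 and Clock having more than 1, for 11 windows in all; Cry1 was not matched. Members were counted by gene, a match in any window of the gene sufficing, and the background by window, so the shares are not of like units. The E-box CACGTG was found in windows of 2 of these 9 genes and in 6.418% of all 33469 windows. The D-box TTATGTAA was found in 1 gene and in 0.8934% of all windows. The REV-ERB core, TAGGTCA, counted together with its variant TGGGTCA, was found in 1 gene and in 6.6% of all windows. The cyclic AMP element TGACGTCA was found in 0 genes and in 1.829% of all windows. No motif overlapped another in the member windows. A match is a stretch of letters and not a measured binding site, and the windows cover 300 bases each.

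Most of the 10 clock genes varied widely between arrays of the same group. Selection on a pattern shared over these arrays favours genes with a large spread, so the comparison with all genes is a description. The median within-group SD of the 10 was 0.54, against 0.21 over all 14506 genes, and 6 of the 10 lay above the 90th percentile (0.43). Bhlhe41, a repressor that competes at E-boxes, ranged 7.27-fold between its lowest and its highest array. Per1 ranged 4.47-fold, the output factor Dbp 4.39-fold, Npas2 4.36-fold and Bmal1 3.98-fold. Clock itself was the flat member: it ranged 1.41-fold, and its SD of 0.16 stood at the 27.5th percentile of all genes.

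**Figure D1:**
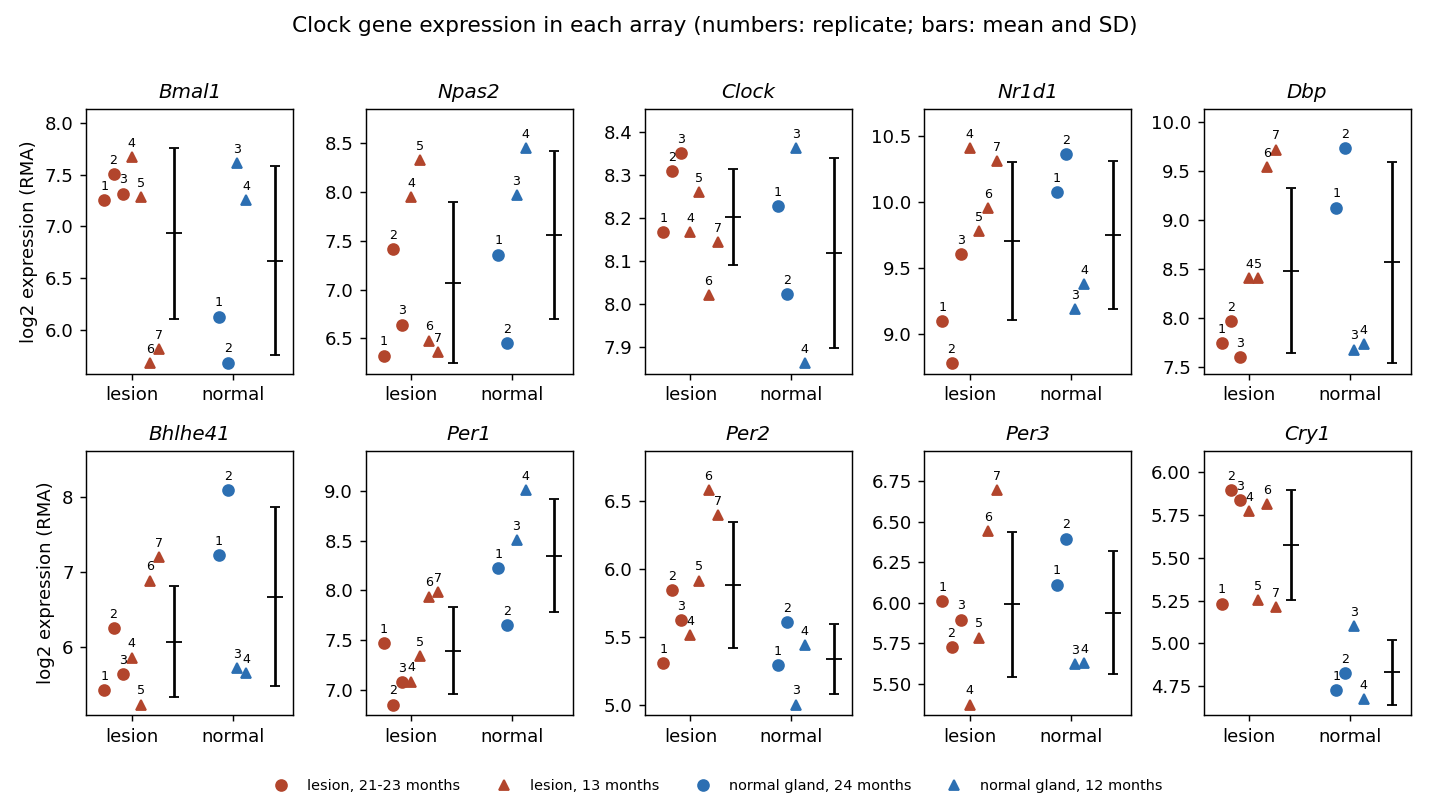
Log2 expression (vertical axis) of each of the 10 clock genes in the 7 lesions (red) and 4 normal glands (blue), with circles for the older and triangles for the younger animals, the replicate number above each point, and bars for the group mean and SD. Vertical scales differ between panels. Bmal1 fell into a lower set of 4 arrays and an upper set of 7, in both groups, and Cry1 was higher in every lesion than in every normal gland.

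Bmal1 transcript was either low or high, with nothing in between. In the lesions its lowest, median and highest values were 5.68, 7.28 and 7.67, and in normal glands 1 to 4 the values were 6.13, 5.68, 7.61 and 7.25. Lesions 6 and 7 and normal glands 1 and 2 were low (5.68 to 6.13), and the other 7 arrays were high (7.25 to 7.67). The gap between these sets was 1.12, against 0.32 for the next largest gap between neighbours in the order. Within each set the neighbours lay closer together than the pooled within-group SD of 0.86. The gap itself widens that SD, and the sets were cut at the largest gap, so nothing is read from this. Low Bmal1 was found in both groups, and among animals of 13 months as well as 24 months. The low arrays comprised 3 males and 1 female.

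Npas2, the alternative partner of BMAL1, did not divide in the same place. It was highest in normal glands 4 (8.45) and 3 (7.97) and in lesions 5 (8.33) and 4 (7.95). It was lowest in lesions 1 (6.32) and 7 (6.36), of which the first had high and the second low Bmal1. Its value in normal glands 1 and 2 was 7.36 and 6.45. Its high values thus fell in the younger animals with high Bmal1, and the older lesions 1 to 3, also with high Bmal1, had 6.32, 7.42 and 6.64.

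Clock, the constitutive partner, stayed between 7.86 and 8.36 in all 11 arrays. The lesion values had a median of 8.17, and those of normal glands 1 to 4 were 8.23, 8.02, 8.36 and 7.86. Both extremes were normal glands with high Bmal1, so that over all 11 arrays the level of Clock showed no division at the Bmal1 gap. In the lesions alone the low-Bmal1 arrays held 8.021 and 8.145 and the others 8.168 to 8.351, a narrow separation.

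Nr1d1, which encodes the repressor of Bmal1, was high wherever Bmal1 was low, but not there alone. In lesions the lowest, median and highest values were 8.78, 9.78 and 10.41. In normal glands 1 to 4 they were 10.08, 10.36, 9.19 and 9.38, so that the low-Bmal1 glands were the higher pair. All 4 arrays with low Bmal1 had Nr1d1 of 9.95 or more, and among the 7 with high Bmal1 it ran from 8.78 to 10.41. Lesion 4, with the highest Bmal1 of all arrays, also had the highest Nr1d1, and lesion 5 had 9.78 beside a Bmal1 of 7.28.

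Dbp, an activator at D-boxes and a direct output of the loop, was high where Bmal1 was low. Its lowest, median and highest values in lesions were 7.60, 8.40 and 9.71, and in normal glands 1 to 4 the values were 9.12, 9.73, 7.67 and 7.73. The 4 arrays with low Bmal1 held 9.12 to 9.73 and the 7 with high Bmal1 held 7.60 to 8.40, with no overlap. The share of all genes that separate at this gap was not counted. The absence of overlap, here and for the genes below, is therefore a description. Lesions 4 and 5 stood between, both at 8.40, above the 5 other high-Bmal1 arrays (7.60 to 7.96), although lesion 4 had the highest Bmal1.

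Bhlhe41 (DEC2) divided in the same way. In lesions it ran from 5.24 through a median of 5.86 to 7.19, and in normal glands 1 to 4 it was 7.23, 8.10, 5.72 and 5.65. The low-Bmal1 arrays held 6.89 to 8.10 and the others 5.24 to 6.25. Normal gland 2 had the highest value. Lesions 4 and 5, intermediate for Dbp, were not so for Bhlhe41 (5.86 and 5.24).

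Per3, a period gene of the negative limb, also divided without overlap. It ran from 5.37 through 5.90 to 6.70 in lesions and was 6.11, 6.40, 5.62 and 5.63 in normal glands 1 to 4. The low-Bmal1 arrays held 6.11 to 6.70 and the others 5.37 to 6.01. Lesion 4 was the lowest and lesion 7 the highest.

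Per2, whose protein with the CRY proteins inhibits the BMAL1 complex, divided with Bmal1 in lesions and not in normal glands. Lesions 6 and 7 held 6.58 and 6.39, and the other 5 lesions 5.31 to 5.91. Normal glands 1 to 4 held 5.29, 5.61, 5.00 and 5.44, which overlap between low and high Bmal1.

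Per1, the period gene with the most direct response to external signals, did not follow Bmal1 alike in both groups. Lesions 6 and 7, with low Bmal1, held 7.94 and 7.99, above the other 5 lesions (6.85 to 7.47). Normal glands 3 and 4, with high Bmal1, held 8.51 and 9.01, above normal glands 1 and 2 (8.23 and 7.65). Whether this relation differed between lesions and normal glands was not tested.

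Cry1, the late-peaking repressor of the loop, showed no division by Bmal1. The lesions had a lowest, median and highest value of 5.21, 5.77 and 5.90. Lesions 6 and 7 lay apart from each other at 5.81 and 5.21, although both had low Bmal1. Normal glands 1 to 4 held 4.73, 4.83, 5.10 and 4.68, below the lowest lesion in each case.

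**Figure D2:**
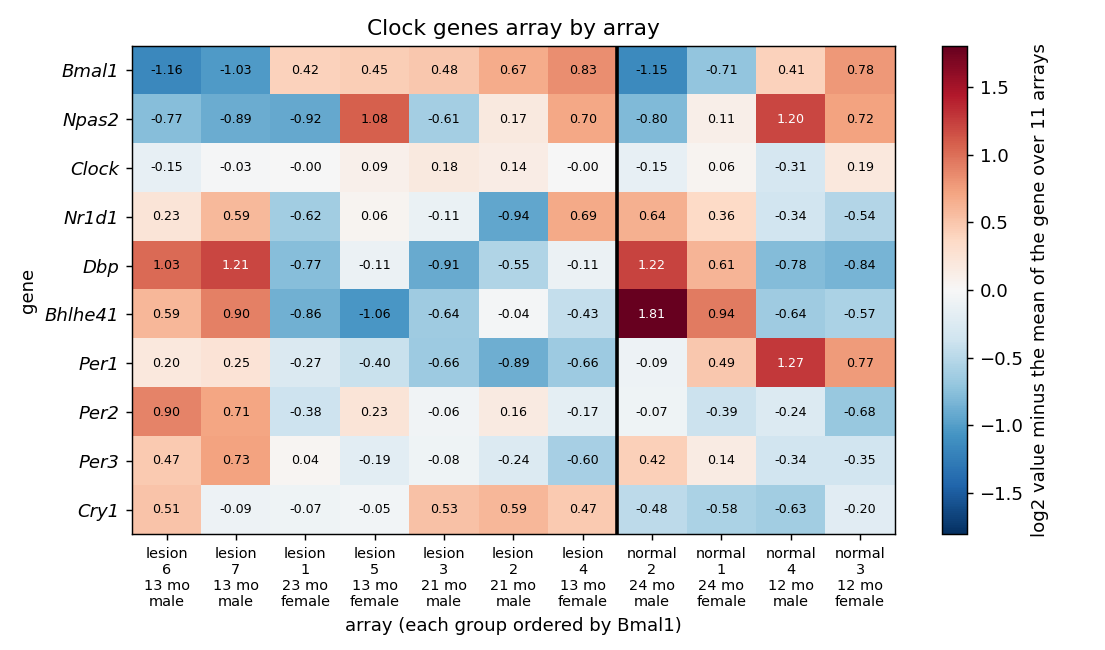
Log2 value of each clock gene minus that gene's mean over the 11 arrays (colour and printed number), with arrays ordered by Bmal1 within lesions (left of the black line) and within normal glands (right of it). Dbp, Bhlhe41 and Per3 are above their mean in lesions 6 and 7 and normal glands 2 and 1, where Bmal1 is below its mean, and Clock stays near 0 throughout.

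Several combinations of levels can be read across the 10 genes. The first was low Bmal1 with high Dbp, Bhlhe41, Per3 and Nr1d1, in lesions 6 and 7 and normal glands 1 and 2. The second was high Bmal1 with low Dbp and low or middling Nr1d1, in lesions 1 to 3 and normal glands 3 and 4. The third was high Bmal1 with high Npas2 and Nr1d1 above its lesion median or at it, in lesions 4 and 5. High Npas2 was not particular to the third. Normal glands 4 and 3, of the second, had 8.45 and 7.97, beside 8.33 and 7.95 in lesions 5 and 4. These sets were read from the values themselves, so no test was made between them. Within each group they also followed the age and sex labels. Lesions 6 and 7 were the only lesions of 13-month males, lesions 4 and 5 the only ones of 13-month females. Lesions 1 to 3 were the older ones. Normal glands 1 and 2 were of 24 months, and normal glands 3 and 4 of 12 months. The combinations cannot be told apart from these labels. As a description, the profile of lesion 7 over the 10 genes correlated at 0.92 with that of lesion 6 and at 0.88 with that of normal gland 2. Normal glands 3 and 4 correlated with each other at 0.86, normal glands 1 and 2 at 0.83, lesions 1 and 3 at 0.80 and lesions 4 and 5 at 0.69. The array most like normal gland 2 was thus a lesion. The profiles share genes and processing.

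Because Bmal1 fell into separate sets, a correlation over all arrays rests largely on the gap. After subtraction of the group means, Pearson's r with Bmal1 over the 11 arrays was -0.94 for Per3, -0.92 for Dbp, -0.88 for Bhlhe41, -0.81 for Per2 and -0.61 for Nr1d1 (Spearman's rho -0.95, -0.79, -0.75, -0.64 and -0.37). Within the 7 arrays above the gap, with group means again subtracted, Per3 gave an r of -0.76. The others of these 5 gave -0.29 (Per2), 0.27 (Nr1d1), 0.37 (Dbp) and 0.62 (Bhlhe41). For the activator genes the values were 0.70 over 11 arrays and 0.23 above the gap for Npas2, and 0.42 and 0.46 for Clock. Cry1 gave 0.25 over 11 arrays and 0.73 above the gap. Per1 gave -0.19 over 11 arrays, -0.93 in the 7 lesions and -0.78 above the gap. Among the pairs without Bmal1, those with an r of at least 0.7 in size within the 7 arrays were Cry1 with Per1 (-0.94), Npas2 with Dbp (0.93), Cry1 with Bhlhe41 (0.80), Per1 with Bhlhe41 (-0.76), Dbp with Per3 (-0.74) and Clock with Per1 (-0.72). Over all 11 arrays Npas2 with Dbp (-0.50) and Dbp with Per3 (0.80) had the opposite sign. All are descriptions over few arrays of 1 series, without a p-value.

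**Figure D3:**
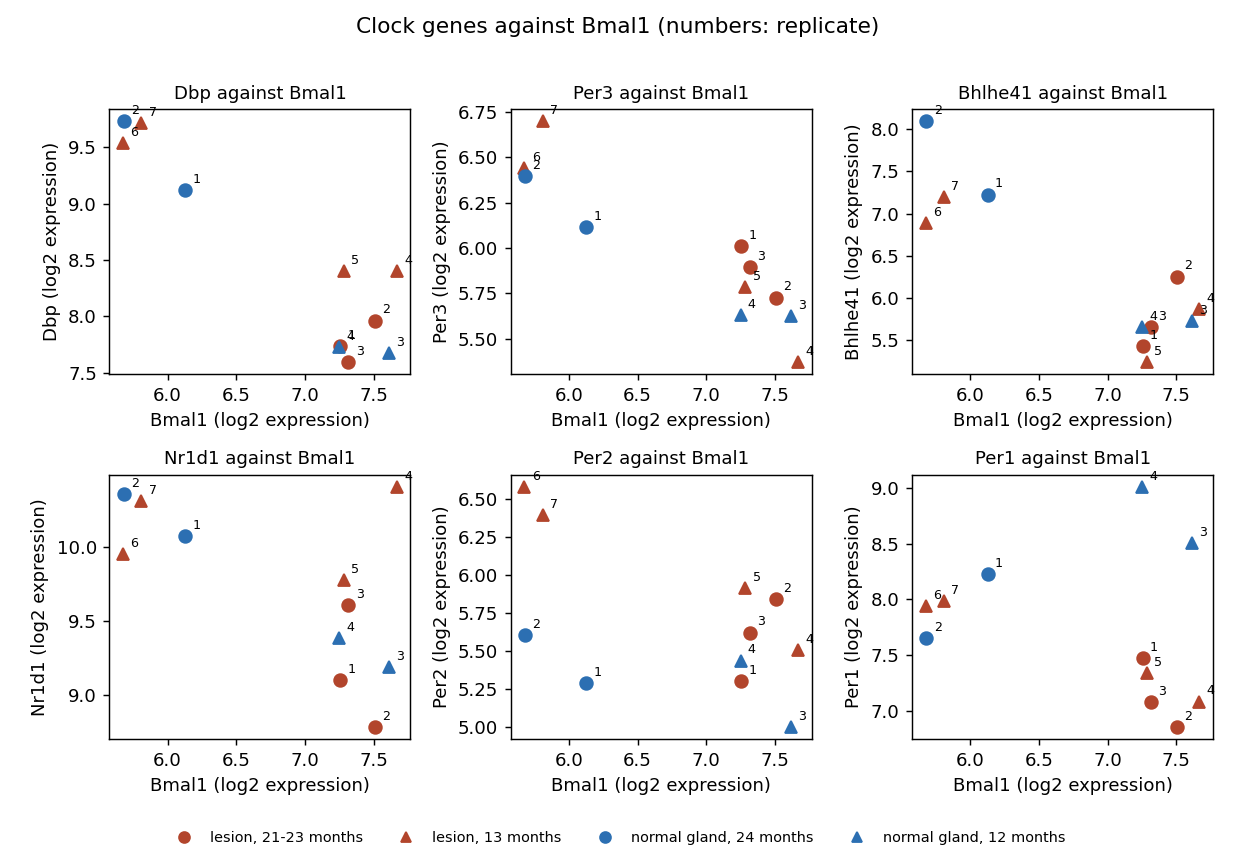
Log2 expression of 6 clock genes (vertical axes) against that of Bmal1 (horizontal axes) in each array, coloured by group and shaped by age, with replicate numbers. The empty span of Bmal1 between 6.13 and 7.25 separates 4 arrays from 7. Per1 is high in normal glands 3 and 4 on the right, where the lesions have their lowest values.

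The genes most like Bmal1 in pattern were looked for among all genes above the median level. The 3 lowest correlations over 11 arrays, group means subtracted, belonged to Nr1d2 (-0.94), Per3 (-0.94) and Dbp (-0.92), and the 3 highest to the tubulin gene Tuba4a (0.83), the transcription factor gene Scx (0.81) and the SUMO protease gene Senp2 (0.80). Above the gap these became -0.21 for Nr1d2, -0.76 for Per3, 0.37 for Dbp, 0.47 for Tuba4a, 0.32 for Scx and 0.71 for Senp2. Of all 14505 other genes, 9 (0.062%) reached an r of 0.8 or more, and none was a member. At -0.8 or below were 16 (0.11%), of which 4 were members (Per2, Per3, Dbp and Bhlhe41). Since the joint pattern chose the members, nothing is read from the latter count.

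Nr1d2, the paralog of Nr1d1 that encodes REV-ERBβ, was not among the 10 and divided at the same place without overlap. It held 8.44, 8.48, 8.43 and 8.48 in lesions 7 and 6 and normal glands 2 and 1, and 7.66 to 7.93 in the other 7 arrays. The sets were thus separated by more than the spread within either. Nr1d2 is named here for its low r with Bmal1, and the share of all genes that separate so was not counted. Among the other listed genes of the loop, Nfil3, a repressor at D-boxes, had an r of 0.55 with Bmal1, and the NAD-synthesis gene Nampt 0.52. Above the gap these were 0.35 for Nfil3 and -0.0092 for Nampt, the latter near 0.

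Per1 kept other company. Its 3 highest correlations over 11 arrays were with Acly (0.93), which makes cytosolic acetyl-CoA, Mthfs (0.92) of folate metabolism and the mitochondrial import gene Tomm40 (0.92). Its lowest were with Procr (-0.88), Hivep2 (-0.87) and Eed (-0.85). Above the Bmal1 gap these were 0.83, 0.72 and 0.69 for the first 3 and -0.87, -0.91 and -0.66 for the others. Among genes responsive to cyclic AMP, and chosen after their values were seen, Sik1, a kinase that restrains the cyclic AMP response, had an r of 0.87 with Per1 and the nuclear receptor gene Nr4a1 one of 0.82 (0.79 and 0.42 above the gap). Other genes of that list went the other way, Egr1 with -0.65, Fos with -0.56 and Dusp1 with -0.52, so that the list had no single direction with Per1.

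Lesions and normal glands were compared next, as the series design does. Cry1 stood at 5.57 ± 0.32 (SD, n = 7) in the lesions against 4.83 ± 0.19 (SD, n = 4) in the normal glands, and all 7 lesions lay above all 4 normal glands. The difference was 0.74 (95% CI 0.38 to 1.10) and its limma adjusted p over all probe sets was 0.258, so that it was not called. Per1 lay the other way, at 7.39 ± 0.44 (SD, n = 7) against 8.35 ± 0.57 (SD, n = 4), with a difference of -0.96 (95% CI -1.54 to -0.37; limma adjusted p = 0.298). The lesion and normal values of Per1 overlapped through lesions 6 and 7 and normal gland 2. Per2 lay at 5.88 ± 0.46 (SD, n = 7) against 5.33 ± 0.26 (SD, n = 4), with a difference of 0.55 (95% CI 0.05 to 1.05; limma adjusted p = 0.612).

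The other 7 clock genes had intervals that included 0. The difference was -0.49 for Npas2 (95% CI -1.49 to 0.52), -0.60 for Bhlhe41 (-1.70 to 0.50) and 0.26 for Bmal1 (-0.76 to 1.29). It was 0.08 for Clock (-0.14 to 0.31), -0.05 for Nr1d1 (-0.76 to 0.66), -0.08 for Dbp (-1.17 to 1.00) and 0.05 for Per3 (-0.47 to 0.57). For Clock the interval leaves room only for small differences, whereas for Bmal1, Dbp and Bhlhe41 it reaches past a doubling.

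By limma at an adjusted p under 0.05, 0 of the 10 clock genes were called, and 3 had an unadjusted p under 0.05. The background was 19 of 29214 probe sets called (0.065%), all lower in lesions, with 2251 at an unadjusted p under 0.05. That count of 19 was 5 without normal gland 3, 11 without lesion 7 and 28 without lesion 1, and the clock count stayed at 0. Of all probe sets, 140 (0.479%) were higher in every lesion than in every normal gland, as Cry1 was. The median difference of the 10 genes was 0.0016, beside 0.0064 over all probe sets, with 5 above and 5 below 0. P-values measure only the spread between these arrays, each of which is taken as a separate animal.

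**Figure D4:**
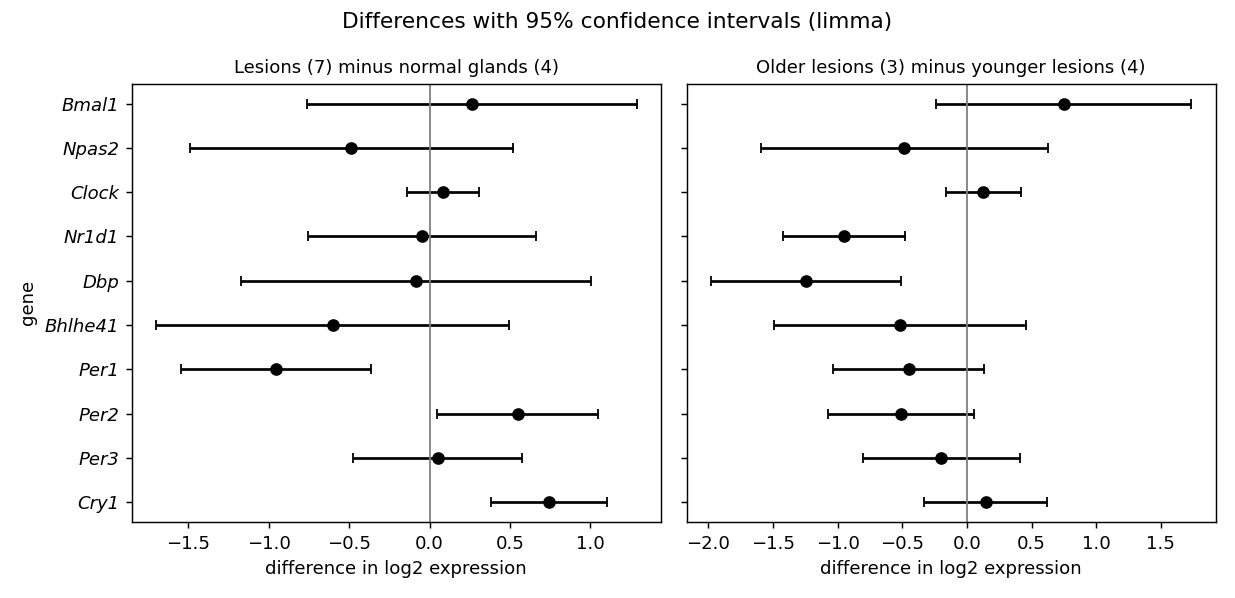
Difference in log2 expression with its 95% confidence interval from limma for each clock gene, lesions minus normal glands on the left and older minus younger lesions on the right, with a line at 0. On the left the intervals of Cry1 and Per2 lie above 0 and that of Per1 below it, and on the right those of Nr1d1 and Dbp lie below 0.

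Of 23 further genes of the clock circuit that were listed for this purpose, 16 had a probe set. None of the 16 was called between lesions and normal glands by limma, and 3 had an unadjusted p under 0.05. The largest differences were those of Klf10, a clock-controlled repressor (0.72, 95% CI 0.22 to 1.22, limma adjusted p = 0.396), Nfil3 (-0.68, 95% CI -1.73 to 0.37) and the deubiquitinase gene Usp2, a common output of peripheral clocks (-0.67, 95% CI -1.05 to -0.30, limma adjusted p = 0.258). The median of the 16 was -0.04.

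Lists of genes that respond, as Per1 does, to glucocorticoids or to cyclic AMP were described in the same way. Of 13 glucocorticoid-responsive genes, 0 were called in lesions and 5 had an unadjusted p under 0.05, with a median difference of -0.09. The largest were Ddit4 (-1.12), Pdk4 (0.78) and the metallothionein gene Mt2A (-0.70). Of 10 measured genes responsive to cyclic AMP and immediate early signals, 5 fell in lesions by limma (Fos, Junb, Egr1, Nr4a2 and Atf3) and all 10 differences were below 0, with a median of -1.92. The largest were Nr4a2 (-3.21), Egr1 (-2.89) and Fos (-2.10). The per-array mean of this list was 6.77 to 7.03 in lesions and 8.37 to 9.21 in normal glands. Any relation of this list to the difference of Per1 was not tested. With Bmal1 the glucocorticoid list mean correlated at -0.71 over 11 arrays, group means subtracted, with Klf9 (-0.70), Fkbp5 (-0.59) and Tsc22d3 (-0.58) its leading members. Above the gap these were -0.025 for the list mean, 0.29 for Klf9, -0.096 for Fkbp5 and -0.37 for Tsc22d3. The mean of the cyclic AMP list correlated at 0.26 with Bmal1, Atf3 (0.70), Crem (0.53) and Nr4a3 (0.50) being its leading members, and above the gap these were 0.12 for the list mean, 0.27, 0.30 and -0.25.

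Nr1d1 and Dbp were lower in every older lesion than in every younger one, though neither was called. In the 3 lesions of 21 to 23 months Nr1d1 was 9.16 ± 0.42 (SD, n = 3), and in the 4 of 13 months 10.11 ± 0.30 (SD, n = 4), with no overlap. The difference was -0.95 (95% CI -1.42 to -0.48; limma adjusted p = 0.308). Dbp was 7.77 ± 0.18 (SD, n = 3) in older and 9.01 ± 0.71 (SD, n = 4) in younger lesions, again with no overlap, a difference of -1.25 (95% CI -1.98 to -0.51; limma adjusted p = 0.347). In the normal glands, with 2 a side, older minus younger was 0.94 for Nr1d1 and 1.73 for Dbp. Both pairs of normal glands lay apart without overlap in the direction opposite to the lesions.

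The other members differed less between lesion ages. Older minus younger was 0.75 for Bmal1 (95% CI -0.24 to 1.74), -0.51 for Per2 (-1.07 to 0.05), -0.52 for Bhlhe41 (-1.50 to 0.46), -0.45 for Per1 (-1.04 to 0.14) and -0.48 for Npas2 (-1.60 to 0.63). It was -0.20 for Per3, 0.14 for Cry1 and 0.13 for Clock, with intervals that include 0. In normal glands the same differences, given as values, were -1.53 for Bmal1, -1.31 for Npas2, 1.97 for Bhlhe41, 0.63 for Per3 and -0.82 for Per1. Both 24-month glands were in the low-Bmal1 set and both 12-month glands in the high set, so that age and Bmal1 level cannot be told apart in normal glands. Among the lesions both low-Bmal1 arrays, lesions 6 and 7, were of 13 months, and they were the only males of that age. Age and Bmal1 level are thus partly joined there too. Age taken with sex cannot be told apart from Bmal1 level in lesions.

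Of the 10 clock genes, 0 were called between older and younger lesions by limma and 2 had an unadjusted p under 0.05. The background was 3 of 29214 probe sets (0.0103%), with 2805 at an unadjusted p under 0.05. That count was 39 without lesion 2, 7 without lesion 3, 6 without lesion 6 and 1 or 2 without any other single array, and the clock count stayed at 0. Nr1d1 and Dbp shared the absence of overlap, lower in all older lesions, with 1330 probe sets (4.55%). The median difference of the 10 was -0.47, beside -0.02 over all probe sets. Among the 16 other circuit genes, Bhlhe40, the paralog of Bhlhe41, was -0.81 (95% CI -1.18 to -0.44, limma adjusted p = 0.257) and Cry2 -0.76 (95% CI -1.33 to -0.20, limma adjusted p = 0.422), both without overlap and both named after their values were seen. Marker lists also differed between lesion ages: 10 of 10 cortical steroidogenesis genes had a difference below 0 (median -0.72) and 8 of 9 chromaffin genes one above 0 (median 0.44). The cortical differences leaned on lesion 1, with a list mean of 9.31. Lesions 2 and 3 had 10.58 and 10.84, and the younger lesions 10.75 to 11.07. The chromaffin means were 10.98, 10.49 and 10.44 in lesions 1 to 3 and 9.59 to 10.19 in the younger lesions. Of 6 adipocyte genes, 5 had a difference below 0 (median -0.60), with Adipoq at -1.80. Of 3 Schwann and sustentacular genes, S100b was -1.41 without overlap between the ages, and Sox10 and Gfap were 0.03 and -0.10. None of these lists had a called member, and the names were chosen after their values were seen. Their part in the age differences of the clock genes was not tested.

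Set within age, the difference between lesions and normal glands changed sign for several genes. At 21 to 24 months lesions minus normal glands was 1.45 for Bmal1, -1.06 for Nr1d1, -1.66 for Dbp, -1.89 for Bhlhe41 and -0.38 for Per3. At 12 to 13 months it was -0.82, 0.83, 1.31, 0.61 and 0.45 for the same genes. Cry1 (0.88 and 0.62), Per1 (-0.80 and -1.17), Per2 (0.14 and 0.88) and Npas2 (-0.11 and -0.93) kept 1 direction at both ages. The difference between ages was not tested. Low Bmal1 fell in younger lesions and in older normal glands, and age and Bmal1 level are not separate in these differences.

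Sex was compared over 6 males and 5 females with group in the model. By limma 0 of the 10 clock genes and 0 of 29214 probe sets (0%) were called, with 1154 probe sets and 1 clock gene at an unadjusted p under 0.05. That gene was Per2, higher in males by 0.48 (95% CI 0.08 to 0.88; limma adjusted p = 0.999). A sex difference that itself differed between lesions and normal glands was called for 0 clock genes and 0 probe sets (0%) by limma, with 1927 probe sets and 0 clock genes at an unadjusted p under 0.05.

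The tissue labels were checked with marker genes. Cortical steroidogenesis genes and chromaffin genes were detected together in all arrays, as means of 10 and 9 genes. The cortical mean was 9.31 in lesion 1 and 10.58 to 11.07 in the other lesions, beside 10.18 to 10.64 in normal glands. The chromaffin mean was 10.98 in lesion 1, 9.59 to 10.49 in the other lesions and 10.05 to 10.40 in normal glands. Lesion 1 thus stood apart with less cortical and more chromaffin transcript. Without it the difference of Cry1 was 0.80 and that of Per1 -0.97. The lowest and highest means were 4.69 and 6.39 for 6 adipocyte genes, 6.50 and 7.28 for 6 macrophage genes, 4.56 and 5.40 for 6 lymphocyte genes, 7.48 and 7.93 for 5 endothelial genes, 4.76 and 5.88 for 3 Schwann and sustentacular genes and 5.38 and 6.42 for 4 erythroid genes. None of these lists had a called member between lesions and normal glands. With Bmal1 the cortical mean correlated at 0.07 and the chromaffin mean at -0.02 over 11 arrays, group means subtracted (0.34 and -0.40 above the gap). In these bulk samples fewer cells of a type and less transcript per cell cannot be told apart.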

How the data were processed

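Per the labels' protocols, total RNA of 11 adrenal samples was treated with DNase, amplified across whole transcripts from small amounts and biotin-labelled. The deposited values are log2 expression per probe set. Per the submitters' processing notes they were computed by RMA, with Affymetrix Expression Console 1.3.0.187 named as the tool. The sources used here state neither the summary level nor the genome build of the probe design. RMA subtracts background and gives arrays a common distribution, which compresses differences of dim probe sets and hides shifts shared by all genes. The values ran from 2.1 to 13.5, array medians from 4.91 to 5.01 and correlations between arrays from 0.960 to 0.992, and no further normalization was applied. An array has no read depth, so precision rests on how many there are. Scan batches and signal over background were not used here.

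Names came from the platform annotation, in which 15310 of 29214 probe sets had 1 gene symbol, 323 several and 13581 were unlisted. Where a gene had more than 1 probe set, the brightest stood for it. All tests of differences were two-sided and used limma 3.58.1 in R 4.3.3 (lmFit and eBayes, Benjamini-Hochberg over all 29214 probe sets, calls at an adjusted p under 0.05). Lesions and normal glands were fitted with group alone, lesion ages in a model of group by age class, sex with group in the model, and the sex interaction in a model of group by sex. The fit was also run on simulated data with independent noise per probe set and added differences. Such data lack the joint variation of genes over these arrays, and nothing is read from that run here. Percentages are shares of all probe sets or genes that met the same criterion.

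The clock genes, the gene lists and the rule for naming genes were chosen with earlier results of these data known. The rule named all 10 clock genes, up to 3 genes per other list by correlation with Bmal1 or by difference, and the 3 highest and 3 lowest correlations with Bmal1 and with Per1. Promoter windows were RefSeq sequences of build GRCr8, credited as such. Alternatives were other normalizations, filters, variance models, array weights, covariates, the replicate number as a block, a stricter threshold of 0.01, subsets by age and leaving out each array. The correlations within arrays above the Bmal1 gap were added after seeing the data. Plots were made in Python 3.11.15 with matplotlib 3.10.9.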

Additional observations from a re-analysis of the deposited data

Results flagged for a closer look

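Nr1d1 and Dbp differed with age in opposite directions in lesions and in normal glands, with no overlap between the ages in either group. Older minus younger was -0.95 for Nr1d1 in lesions and 0.94 in normal glands, and -1.25 for Dbp in lesions and 1.73 in normal glands. The difference between the groups was not tested, and the normal glands have 2 animals of each age. The low-Bmal1 arrays were lesions 6 and 7, both younger, and normal glands 1 and 2, both older. Age and Bmal1 level are thus partly joined in lesions and cannot be told apart in normal glands. Lesions 6 and 7 were also the only lesions of younger males, so age taken with sex cannot be told apart from Bmal1 level in lesions. Dbp was 9.54 and 9.71 in lesions 6 and 7 and 8.40 in both lesions 4 and 5. Nr1d1 was 9.95 and 10.31 in lesions 6 and 7 and 10.41 and 9.78 in lesions 4 and 5. In 20 sets of a gene and a group, 0 had a sample far from the others by Dixon's criterion, where chance gives about 1 in 20. The criterion compares an extreme value with its neighbour. Arrays that lie apart together, as lesions 6 and 7 did for Bmal1, are therefore not flagged. The 20 sets also share arrays.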

How the results depend on the processing

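The number of clock genes called stayed at 0 in all 3 main comparisons (group, lesion age and sex) under every alternative run, and the lowest adjusted p was 0.109 for Cry1 between groups (0.109 to 0.976 over the alternatives). Of the differences of single clock genes, 619 kept their direction and 41 reversed, none of them called. Some settings could not change a difference: the stricter threshold, the filters on probe sets, the mean of probe sets and the variance models. Between lesion ages the same holds for the lesions alone and for leaving out a normal gland. The 619 is therefore not a measure of stability. The cause of the reversals was not tested.

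Probe sets called between lesions and normal glands (19) numbered 30 without the dimmer probe sets, 31 with array weights, 29 with sex and age class, 9 at a threshold of 0.01, 3 with the replicate block, 0 at 21 to 24 months only and 5 at 12 to 13 months only, and 5 to 28 on leaving out 1 array. Between lesion ages (3) they numbered 1 at 0.01, 0 with the replicate block, 1 in the 7 lesions alone and 1 to 39 on leaving out 1 array. Fewer animals enter the age subsets, the lesions alone and the replicate block. In the block, lesions 5 to 7 have no normal gland of their number and add nothing to the difference. Between lesion ages the block sets lesion 3 against lesion 4, each minus its normal gland, so nothing is read from its count.

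Between groups, Per3 was -0.19 with the replicate block and -0.38 at 21 to 24 months, and at 12 to 13 months Bmal1 was -0.82, Nr1d1 0.83, Dbp 1.31 and Bhlhe41 0.61. Leaving out 1 array gave -0.24 to 0.16 for Nr1d1, -0.38 to 0.30 for Dbp, -0.068 to 0.20 for Per3, -0.067 to 0.58 for Bmal1 and -0.0015 to 0.17 for Clock. Between lesion ages leaving out 1 array gave -0.43 to 0.011 for Per3. The replicate block leaves lesions 5 to 7 without effect, since no normal gland bears their number. Its age value is lesion 3 minus normal gland 3, less the same for lesion 4 and normal gland 4. That value is not an older minus younger difference among lesions. It was -0.72 for Bmal1, -0.32 for Clock, -0.36 for Cry1, 0.50 for Per1, 0.55 for Per2 and 0.53 for Per3. The sex values of the block rest on those arrays too. Between sexes Per1 was -0.032 with array weights, the replicate block gave -0.18 for Cry1, -0.30 for Nr1d1, -0.38 for Dbp and -0.14 for Bhlhe41, and leaving out 1 array gave -0.14 to 0.23 for Nr1d1 and -0.081 to 0.30 for Per1.

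Within the arrays above the Bmal1 gap, an alternative chosen after seeing the data, r with Bmal1 was 0.27 for Nr1d1, 0.37 for Dbp and 0.62 for Bhlhe41, and leaving out 1 array gave -0.59 to 0.029 for Per1. Of the correlations with Bmal1 under the alternatives, 163 kept their sign and stayed within an approximate 95% interval around the main value. A further 3 kept their sign outside it, and 5 reversed. The interval is wide: Npas2, at 0.70 over 11 arrays and 0.23 above the gap, counts as within it.

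Same-numbered lesions and normal glands deviated together with r of 0.18, 0.15, 0.07 and 0.21, of which 1 is under 0.1, so the numbers were not taken to pair the samples. Lesions 1 to 4 each correlated best with their own number, as a hint from the data and not the design, and normal gland 4 did so with lesion 5 (0.23). Each clock gene had 1 probe set, so averaging probe sets changed none of them.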
